A study of Mus musculus with 96 samples.

Results

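Facultative heterochromatin that was closed in undifferentiated cells made up 9191 of the 42403 GATA6 binding regions profiled in mouse embryonic stem (ES) cells, or 21.7%. These regions were taken from the authors' classes, as facultative heterochromatin by histone marks of ES cells and as closed by accessibility before induction. They were nearly all of the facultative heterochromatin bound by GATA6, since of its 9475 regions only 284 were accessible or of moderate accessibility. The classes rest on histone and accessibility profiles and not on the factor signals followed here.

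KH2 ES cells, of a C57BL/6 x 129/Sv background and carrying a doxycycline-inducible Gata6 cassette, were grown with serum and LIF on feeders. They were profiled without doxycycline (day 0) and at 8 h, 16 h and days 1, 2 and 4 of induction with 1 ug/mL doxycycline, by chromatin immunoprecipitation and sequencing of GATA6, SOX17, OCT4, SOX2 and ESRRB and by sequencing of input chromatin. XEN cells, a line of extra-embryonic endoderm of another strain (CD1), were grown without LIF and without induction, and ESRRB had no XEN column. In a separate experiment, inducible cells received control or Oct4 siRNA together with doxycycline for 48 h before GATA6 and SOX17 were profiled. All induced cells express Gata6 from a transgene, which differs from its onset in the embryo, and the siRNA cells were 1 clone.

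GATA6 is a zinc finger factor that binds GATA sequences and drives primitive endoderm, the extra-embryonic lineage that separates from the epiblast in the blastocyst. SOX17 is an HMG box factor of the same lineage, whereas OCT4, SOX2 and ESRRB belong to the pluripotency network, in which OCT4 and SOX2 bind together to a composite motif. Facultative heterochromatin is chromatin that Polycomb complexes hold silent through H3K27me3 and that can open in another lineage. XEN cells express GATA6 and SOX17 and have shut off Oct4 and Sox2.

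Levels are library-size corrected read counts over a region, given as RPM. Each condition had 1 value per region, in which the authors combined its 1 to 3 libraries, so that no spread between replicates could be computed and no test was made. GATA6 at day 0 and OCT4 in XEN cells had 1 library each. A region was counted as changed from a 2-fold difference of RPM plus a small pseudocount on, and the main counts are given beside the share of all 42403 regions past the same limit. Regions are not replicates of a condition, and all 42403 were chosen as GATA6 peaks, which alone places GATA6 above day 0 at many of them.

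The sequences of the regions at the extremes show which GATA motif lay in chromatin that was closed at the start. Each is the reference sequence of mm10 (GRCm38) around the best GATA6 motif as placed by the authors, read 5′ to 3′ on the strand of the motif, with the 13 bases of the motif in capitals. The first 3 are the regions with the highest GATA6 of the early, the late and the transient class, and the next 3 have the highest OCT4 at day 2, SOX2 at day 2 and ESRRB at day 0. The last 2 gained and lost most GATA6 with Oct4 siRNA.
Early, chr16:92494140-92494199, plus strand: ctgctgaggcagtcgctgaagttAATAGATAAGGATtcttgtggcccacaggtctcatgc
Late, chr11:79838490-79838549, plus strand: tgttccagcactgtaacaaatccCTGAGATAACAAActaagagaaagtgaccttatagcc
Transient, chr16:93424482-93424541, plus strand: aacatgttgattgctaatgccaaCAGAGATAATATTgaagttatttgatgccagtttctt
Highest OCT4, chr19:43982160-43982219, plus strand: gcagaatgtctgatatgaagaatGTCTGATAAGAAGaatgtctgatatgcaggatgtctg
Highest SOX2, chr19:53890875-53890934, plus strand: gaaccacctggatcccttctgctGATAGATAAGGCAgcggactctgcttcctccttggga
Highest ESRRB, chr8:24204727-24204786, minus strand: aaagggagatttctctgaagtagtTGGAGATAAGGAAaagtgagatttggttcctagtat
Gain with Oct4 siRNA, chr9:77763506-77763565, plus strand: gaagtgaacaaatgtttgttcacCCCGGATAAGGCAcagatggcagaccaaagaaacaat
Loss with Oct4 siRNA, chr5:43577402-43577461, minus strand: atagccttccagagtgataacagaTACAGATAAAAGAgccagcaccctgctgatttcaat
All 8 windows lay outside annotated UTRs. The region with the largest gain had a motif score of 6.84, against 13.7 for the region with the highest ESRRB.

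The closed facultative regions were farther from start sites than all regions together, as were the other closed groups. The closed facultative regions were also shorter than all regions, as was closed constitutive heterochromatin but not closed naive chromatin. Their median width was 434 bp, against 524 bp for all regions, 367 bp for closed constitutive heterochromatin and 594 bp for closed naive chromatin. Of them, 52.4% were intergenic, 45.6% intronic and 1.95% exonic by the position of the GATA6 summit, and the median distance to the nearest start site of a protein-coding gene was 34.3 kb, against 25.7 kb for all regions, 40.9 kb for closed constitutive heterochromatin and 46.9 kb for closed naive chromatin. Only 1.53% lay within 1 kb of a start site, compared with 6.57% of all regions. None of them combined a GC content over 55% with an observed to expected CpG ratio over 0.6, a pairing found in 1.90% of all regions and in none of the other closed groups compared. Median GC content was 44.7% in the closed facultative regions and 45.2% overall.

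A GATA6 motif was present in 92.7% of the closed facultative regions and in 89.7% of all regions, and it was in the high score class in 29.9%, against 26.8% overall. Its median distance to the summit was 42 bp, against 51 bp. The letters AGATAA, read on both strands in the 200 bp around the summit, occurred in 62.5% of the closed facultative regions and in 54.3% of all regions. The octamer ATGCNAAT, searched in the same way, occurred in 3.82% against 5.71%, the ESRRB core AAGGTCA in 5.39% against 7.03%, and the SOX core ACAAT in 48.7% against 46.5%. Composite OCT4:SOX2 motifs of the high score class were found in 2.96% of the closed facultative regions and in 6.68% of all regions. In closed naive chromatin a GATA6 motif was present in 95.8%, of the high score class in 35.6%, and AGATAA in 67.6%. In closed constitutive heterochromatin these shares were 90.5%, 27.6% and 60.8%. The median distance to the summit was 51 bp in closed naive and 41 bp in closed constitutive regions, and ACAAT occurred in 57.8% and 52.5%.

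GATA6 reached the closed facultative regions late. The median GATA6 level was 0.327 RPM at day 0, 0.644 RPM at 8 h, 0.928 RPM at 16 h, then 0.917, 0.822 and 1.17 RPM on days 1, 2 and 4, with 1.57 RPM in XEN cells. Over all regions the median had already risen from 0.490 to 1.49 RPM at 8 h and was 1.29 RPM at day 4. At day 0, before induction, the closed facultative regions had a median of 0.978 times their input signal.

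At 8 h, GATA6 was at least 2-fold above day 0 at 3672 closed facultative regions, or 40.0%, against 60.4% of all regions. GATA6 at day 0 came from 1 library, in which 31.8% of the closed facultative regions and 22.9% of all lay at the lowest value. The share was 52.0% against 63.2% at 16 h, 50.8% against 57.4% at day 1 and 47.2% against 52.2% at day 2. The order turned at day 4, with 60.7% of the closed facultative regions against 57.0% of all, and in XEN cells the share was 67.1% against 55.9%. Between 8 h and day 4, GATA6 rose 2-fold at 45.2% of the closed facultative regions (30.9% of all) and fell 2-fold at 19.9% (34.8% of all). From day 4 to XEN cells it was 2-fold higher at 24.4% (14.4% of all) and 2-fold lower at 10.0% (11.7% of all).

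Of the 5576 closed facultative regions with 2-fold GATA6 at day 4, 32.6% had held it at every time since 8 h and 36.1% had it at day 4 without it at day 2. The same shares over all regions with GATA6 at day 4 were 48.3% and 26.9%. A further 1483 closed facultative regions, 16.1%, did not reach 2-fold at any time of the induction, against 10.2% of all regions.

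**Figure D1:**
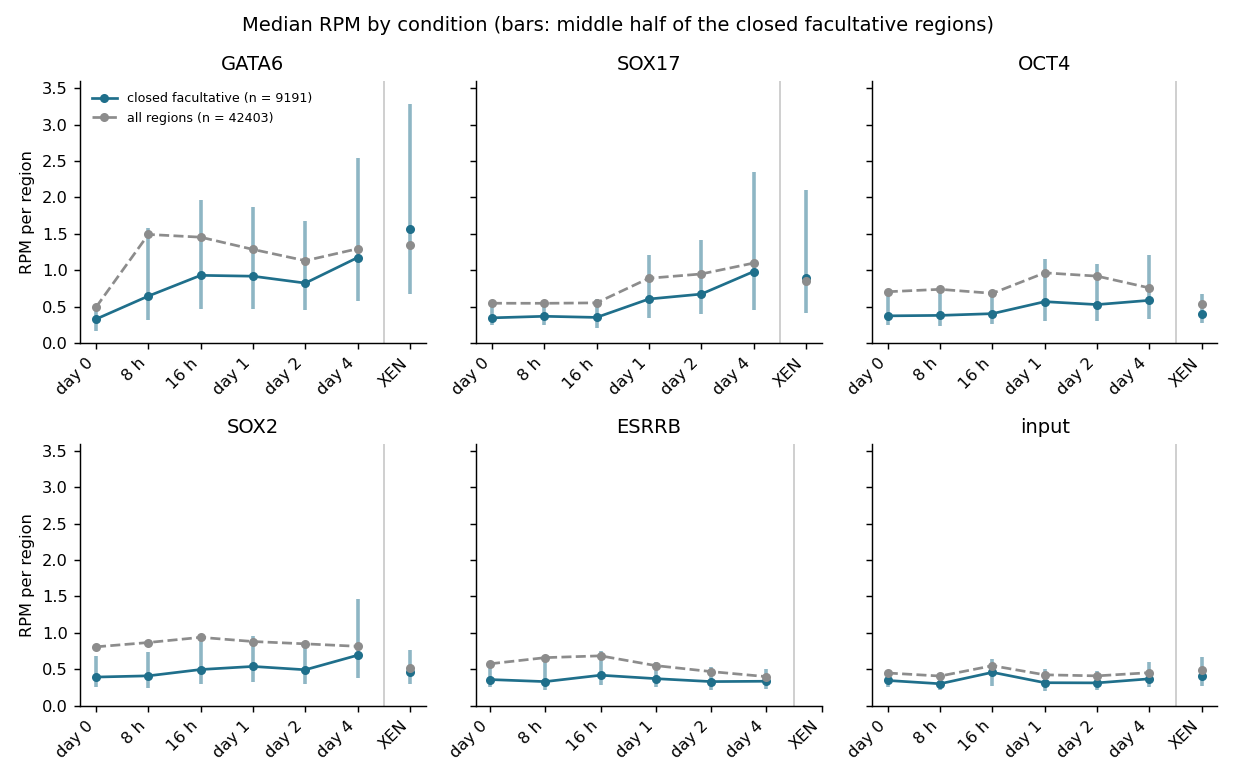
Median RPM per region (y axis) for the 5 factors and input before and during induction and in XEN cells (x axis, not to scale in time). Blue marks the 9191 closed facultative regions with bars from the first to the third quartile, and grey the 42403 regions in all; the GATA6 median of the blue regions is 0.644 RPM at 8 h, under the grey 1.49 RPM, and 1.57 RPM in XEN cells, over the grey 1.34 RPM.

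The order of the groups at 8 h was not that in XEN cells. Per kb of region, which takes their small width into account, their median GATA6 level was 1.42 RPM per kb at 8 h, the lowest of the groups compared. It was 3.56 RPM per kb in the 284 accessible or moderate facultative regions, 1.83 in closed constitutive heterochromatin (3365 regions) and 1.69 in closed chromatin of the class that the authors call naive (7446 regions). In XEN cells the closed facultative regions had the highest level of these groups, 4.22 RPM per kb, and the accessible or moderate facultative regions the lowest, 1.59 RPM per kb. At day 4 the closed facultative regions stood at 2.88 RPM per kb and all regions at 2.69, so per kb the order at day 4 was the reverse of that of RPM per region.

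**Figure D2:**
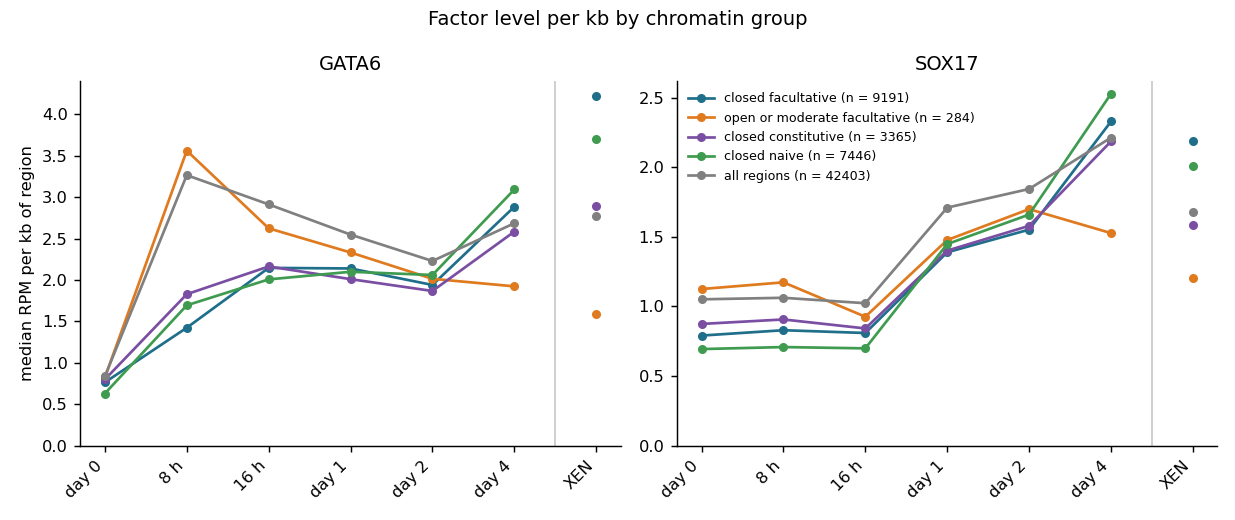
Median GATA6 (left) and SOX17 (right) in RPM per kb of region (y axis) by condition (x axis, not to scale in time) for the closed facultative regions, the 3 groups compared and all regions. The closed facultative regions have the lowest GATA6 at 8 h (1.42 RPM per kb) and the highest in XEN cells (4.22 RPM per kb).

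The authors sorted regions by the time course of GATA6 over input into early, late and transient classes, so the GATA6 course of a class is a description of that sorting. Late regions made up 52.3% of the closed facultative regions (4808), early regions 24.8% (2278) and transient regions 22.9% (2105). Over all regions the shares were 33.6%, 28.0% and 38.4%. In closed constitutive heterochromatin 48.9% were late, in closed naive chromatin 41.6%, and in the accessible or moderate facultative regions 27.8%, where 48.6% were transient.

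In the late closed facultative regions the median GATA6 level was 0.326 RPM at 8 h, 0.586 RPM at day 2, 1.30 RPM at day 4 and 2.04 RPM in XEN cells. In the early regions it was 1.77 RPM at 8 h and 2.61 RPM at day 4, and in the transient regions it went from 1.53 RPM at 8 h to 0.450 RPM at day 4. GATA6 motifs, which did not enter the sorting, differed between the classes. A motif of the high score class was present in 41.6% of the early and 41.5% of the transient closed facultative regions and in 19.3% of the late ones. No GATA6 motif was found in 11.1% of the late regions, against 1.71% of the early and 4.47% of the transient regions. In all late, early and transient regions these shares were 14.1%, 3.7% and 11.7%. The SOX core ACAAT lay around the summit in 55.1% of late, 47.0% of early and 35.8% of transient closed facultative regions, and was not counted by class over all regions.

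The highest GATA6 of any closed facultative region was found in an intron of Clic6, which encodes a protein of the chloride intracellular channel family, at chr16:92491863-92494733. Regions were ranked by RPM per region, without regard to width, which favours wide regions. The Clic6 region was 2870 bp wide, while the 95th percentile of the closed facultative regions was 1085 bp. GATA6 there was 0.490 RPM at day 0, 5.93 at 8 h, 12.0 at 16 h, then 20.7, 29.8 and 47.4 RPM on days 1, 2 and 4, with 94.0 RPM in XEN cells. It was an early region with 9 GATA6 motifs, and it was also the region with the highest SOX17 at day 4, 51.9 RPM, from 1.92 RPM at day 0. Its best motif, shown above, lay 1531 bp from the summit. Input at this region was 1.91 RPM at day 0, 4.44 at day 4 and 6.63 RPM in XEN cells.

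The second and the third of the early class were a region in an intron of Mob3b (chr4:35145476-35147303), with 41.3 RPM at day 4, and one 146 kb from the start site of Maf, a bZIP factor (chr8:115560887-115562928), with 40.9 RPM. They differed in their first hours, with 22.9 RPM at 8 h in Mob3b and 1.62 RPM near Maf.

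The late region with the highest GATA6 at day 4 was intergenic, 124 kb from Utp6, which encodes a nucleolar protein (chr11:79836869-79839103). GATA6 was 2.29 RPM at day 0, 1.54 at 8 h, 4.72 at 16 h, then 5.95, 7.87 and 26.7 RPM on days 1, 2 and 4, with 29.2 RPM in XEN cells. SOX17 rose there in the same interval, from 5.68 RPM at day 2 to 26.7 RPM at day 4. The other late regions named by this rule were in an intron of Nipsnap2 (chr5:129742652-129744715), with 26.2 RPM at day 4, and 37.8 kb from Abhd5, an activator of triglyceride breakdown (chr9:122389036-122390287), with 21.9 RPM.

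The transient region with the highest GATA6 at 8 h lay 179 kb from Setd4 (chr16:93424067-93425450). GATA6 was 1.31 RPM at day 0, 45.6 at 8 h, 21.5 at 16 h, then 5.78, 4.89 and 1.36 RPM on days 1, 2 and 4, with 1.36 RPM in XEN cells, and so returned to the level before induction. OCT4 was already present at day 0 with 15.4 RPM, stood at 27.0 RPM at 8 h and was 1.77 RPM at day 4. The others were 64.7 kb from Zdhhc17, a palmitoyl transferase (chr10:111073832-111075470), with 17.8 RPM at 8 h, and 97.9 kb from Itga6, an integrin subunit (chr2:71688499-71689636), with 16.8 RPM at 8 h. All 3 had been bound by pluripotency factors before induction, which held for 5.27% of the transient closed facultative regions.

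**Figure D3:**
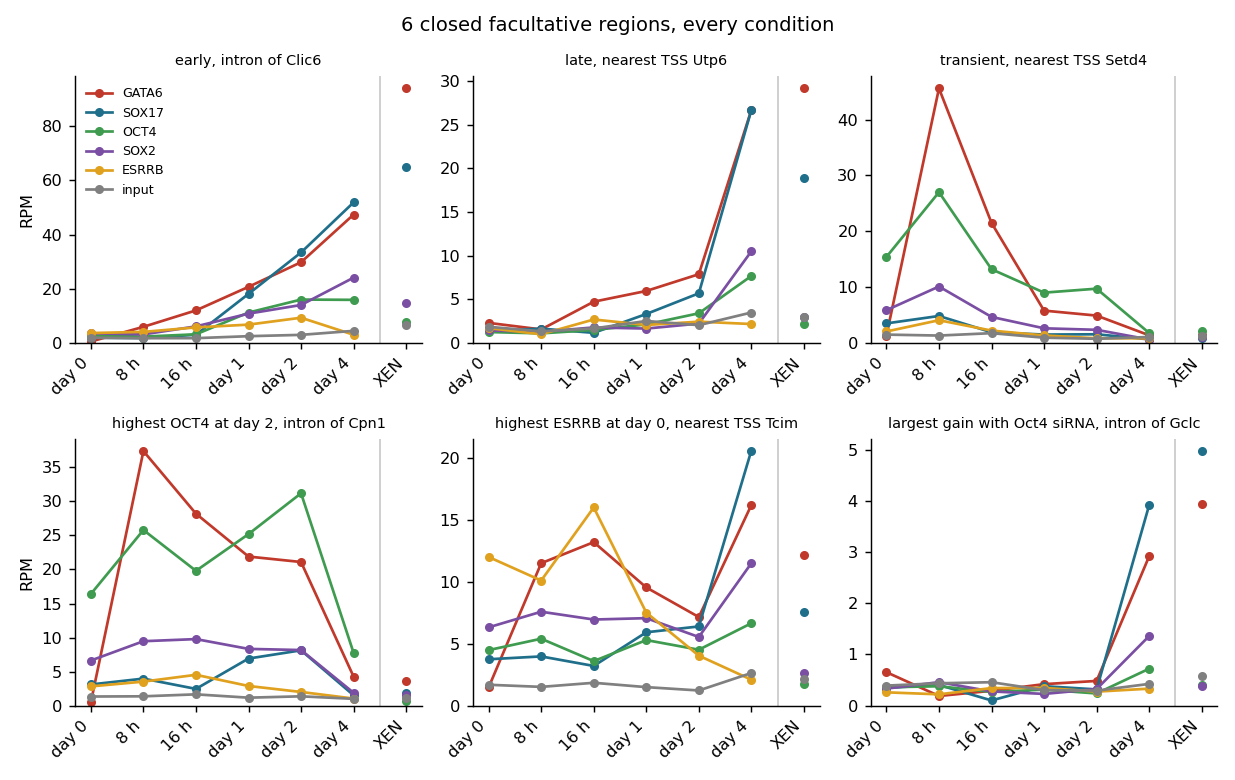
RPM (y axis, a scale of its own in each panel) of the 5 factors and input by condition (x axis, not to scale in time) at 6 closed facultative regions named in the text. GATA6 reaches 45.6 RPM at 8 h and 1.36 RPM at day 4 in the transient region, while in the late region it is 1.54 RPM at 8 h and 26.7 RPM at day 4.

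SOX17 arrived after GATA6, from day 1 on. Its median in the closed facultative regions was 0.344 RPM at day 0, 0.366 at 8 h, 0.350 at 16 h, then 0.603, 0.671 and 0.980 RPM on days 1, 2 and 4, with 0.893 RPM in XEN cells. SOX17 was at least 2-fold above day 0 at 29.4% of them at day 1 (25.8% of all regions), at 36.4% at day 2 (33.1%), at 54.1% at day 4 (44.5%) and at 51.4% in XEN cells (37.4%). Of the 4975 closed facultative regions with this gain at day 4, 46.5% had it at day 4 without it at day 2, against 42.2% over all regions with the gain. Over all regions the median log2 change of SOX17 at day 4 was 0.79, and in the closed facultative regions it was 1.14.

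At day 4, gains of GATA6 and SOX17 were found largely at the same closed facultative regions. Where SOX17 had gained 2-fold at day 4, GATA6 was 2-fold above day 0 at 87.5%, and at 29.0% of the 4216 others. The corresponding shares over all regions were 89.8% and 30.7%, close to those of the closed facultative regions. By the authors' peak calls, 43.7% of the closed facultative regions were bound by SOX17, against 44.5% of all. SOX17 peaks were called at 65.7% of the early, 48.1% of the late and 9.93% of the transient closed facultative regions, against 72.7%, 53.4% and 16.2% of these classes over all regions.

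After Clic6, the highest SOX17 at day 4 was in an intron of Col4a2, 2.82 kb from the start site of Col4a1 (chr8:11315171-11316298), 2 genes of type IV collagen chains of basement membrane. SOX17 was 1.72 RPM at day 0, 1.79 at 8 h, 2.90 at 16 h, then 12.0, 21.3 and 47.6 RPM on days 1, 2 and 4, with 7.59 RPM in XEN cells. GATA6 was lower than SOX17 there, 20.7 RPM at day 4 and 6.84 RPM in XEN cells. Both factors thus stood several times higher at day 4 than in XEN cells at this region, unlike at Clic6. The third was the Mob3b region, with 47.4 RPM.

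**Figure D4:**
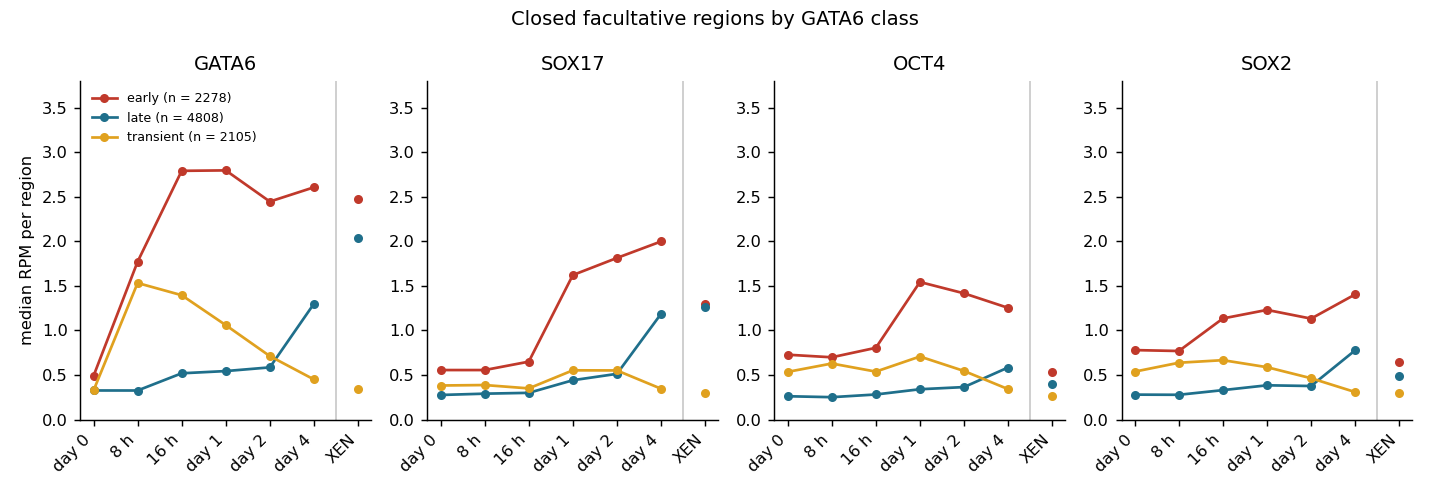
Median RPM per region (y axis) of GATA6, SOX17, OCT4 and SOX2 by condition (x axis, not to scale in time) in the early (2278), late (4808) and transient (2105) closed facultative regions. In the late regions all 4 factors have their highest level of the induction at day 4, when GATA6 stands at 1.30 RPM, whereas in the transient regions GATA6 falls from 1.53 RPM at 8 h to 0.450 RPM.

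Pluripotency factors were scarce in closed facultative heterochromatin before induction. Only 342 regions, 3.72%, were classed by the authors as bound by pluripotency factors at day 0, against 20.8% of all regions, while 1531, 16.7%, were classed as bound ectopically during induction, against 16.6% of all. The remaining 7318, 79.6%, were classed as never bound, against 62.6% of all. Other closed groups also had few regions bound at day 0, with 6.51% of closed constitutive and 8.73% of closed naive regions. The shares never bound were 79.5% and 64.6% in these groups, and those bound ectopically 14.0% and 26.7%.

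The OCT4 median was 0.372 RPM at day 0, 0.378 at 8 h, 0.402 at 16 h, then 0.567, 0.527 and 0.585 RPM on days 1, 2 and 4, with 0.400 RPM in XEN cells. OCT4 was at least 2-fold above day 0 at 17.9% of the closed facultative regions at day 1 (12.4% of all), at 18.8% at day 2 (14.6%) and at 29.9% at day 4 (21.0%). In XEN cells, which have shut off Oct4, the share was 11.5% (6.41% of all). A 2-fold loss at day 4 was found at 5.74% of the closed facultative regions, against 19.4% of all. Their OCT4 median at day 0 was also lower, 0.372 RPM against 0.703 RPM over all regions, so most had little signal to lose.

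The 2-fold gains of SOX2 came mostly at day 4. Its median was 0.392 RPM at day 0, 0.409 at 8 h, 0.496 at 16 h, then 0.538, 0.492 and 0.692 RPM on days 1, 2 and 4, with 0.464 RPM in XEN cells. A 2-fold gain was found at 8.05% of the closed facultative regions at day 1 (4.99% of all), at 8.53% at day 2 (6.01%), at 36.2% at day 4 (24.0%) and at 12.7% in XEN cells (6.97%). A 2-fold loss at day 4 was found at 6.64%, against 24.1% of all regions. Few closed facultative regions were classed as bound by pluripotency factors at day 0, so this low share does not show that SOX2 was retained. Of the 3328 closed facultative regions with a gain at day 4, 80.4% did not have it at day 2 (79.7% over all regions with the gain), and of the 2751 with an OCT4 gain 57.6% did not (55.5% over all regions with the gain).

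The gains of OCT4 and SOX2 signal lay mostly where SOX17 had come. Among the 4975 closed facultative regions with a 2-fold SOX17 gain at day 4, OCT4 had gained 2-fold at 53.4% and SOX2 at 64.0%. Among the 4216 others these shares were 2.23% and 3.46%. Over all regions they were 45.7% and 51.7% with the SOX17 gain and 1.14% and 1.71% without. Input, measured in the same cells, was 2-fold above day 0 at 1.70% of the closed facultative regions at day 4 (1.08% of all) and at 5.96% in XEN cells (4.19% of all). Input moved with SOX17: it was 2-fold higher at 2.98% of the closed facultative regions with the SOX17 gain and at 0.190% of the others. Over all regions these shares of input were 2.30% and 0.106%. With the change of input subtracted, OCT4 had gained 2-fold at day 4 at 24.6% and SOX2 at 31.4% of the closed facultative regions. The shares with input subtracted were not counted over all regions. XEN cells, in which Oct4 and Sox2 are shut off, also had 2-fold gains of both signals at some closed facultative regions. Whether the gains of signal at day 4 were binding of OCT4 and SOX2 was not tested.

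Late regions, in which pluripotency factors were almost absent at day 0, took part in these gains. OCT4 rose 2-fold by day 4 at 40.2% of the late closed facultative regions and SOX2 at 51.5% (39.0% and 48.9% of all late regions), with medians of 0.262 RPM and 0.280 RPM at day 0 and of 0.584 RPM and 0.777 RPM at day 4. By the authors' peak calls 7.13% of these late regions were bound ectopically and 92.8% were not bound at all, against 10.1% and 88.2% of all late regions. In the transient regions OCT4 fell 2-fold at 21.5% and SOX2 at 24.5% by day 4, against 43.4% and 51.7% of all transient regions.

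The highest OCT4 at day 2 was found in an intron of Cpn1, which encodes the catalytic subunit of carboxypeptidase N (chr19:43981525-43982765). OCT4 there was 16.4 RPM at day 0, 25.8 at 8 h, 19.8 at 16 h, then 25.2, 31.2 and 7.75 RPM on days 1, 2 and 4, with 0.667 RPM in XEN cells. GATA6 was highest early, 37.4 RPM at 8 h, and 4.26 RPM at day 4. The region held 1 GATA6 motif, and 41.7% of its bases were marked as repeats. The Mob3b region was next, where OCT4 rose from 8.10 RPM at day 0 to 30.1 RPM at day 2, followed by a region 5.62 kb from Pdgfra, the receptor that marks primitive endoderm (chr5:75145915-75148017), where OCT4 rose from 9.63 to 25.8 RPM and GATA6 went from 29.2 RPM at 8 h to 8.32 RPM at day 4.

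SOX2 at day 2 was highest 1.82 kb from Pdcd4, which encodes an inhibitor of translation (chr19:53889538-53891877), with 7.91 RPM at day 0, 6.35 at 8 h, 15.9 at 16 h, then 13.4, 19.4 and 15.8 RPM on days 1, 2 and 4, with 9.55 RPM in XEN cells. SOX17 at this region went from 3.53 RPM at day 0 to 38.0 RPM at day 4. The Mob3b region, 17.5 RPM at day 2, and an intron of Scube2, a secreted protein (chr7:109850835-109853649), 15.9 RPM, came next. In Scube2 the level at day 2 was close to the 13.0 RPM of day 0.

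ESRRB was low in the closed facultative regions from the start, so most had little signal to lose. Only 1705 of them reached 1 RPM in the ESRRB assay, against 1446 in input. The ESRRB median was 0.358 RPM at day 0, 0.330 at 8 h, 0.418 at 16 h, then 0.370, 0.330 and 0.335 RPM on days 1, 2 and 4. With the change of input subtracted, the median log2 change of ESRRB at day 2 was -0.00109. A 2-fold loss was found at 1.60% of them at day 2 (11.4% of all regions) and at 6.17% at day 4 (25.2% of all). The 342 regions bound by pluripotency factors at day 0 had a median of 1.34 RPM at day 0 and 0.649 RPM at day 4.

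The highest ESRRB at day 0 was 234 kb from Tcim (chr8:24203517-24205655), with 12.0 RPM at day 0, 10.1 at 8 h, 16.0 at 16 h, then 7.51, 4.03 and 2.09 RPM on days 1, 2 and 4. SOX17 at the same region rose to 20.6 RPM at day 4. The next regions were 21.5 kb from Lrrc30 (chr17:67653269-67655063), with 9.77 RPM at day 0 and 2.17 RPM at day 4, and 6.21 kb from 2200002J24Rik (chr7:30705494-30707151), with 9.40 and 1.30 RPM. ESRRB was thus lower at day 4 in all 3, which were chosen for their level at day 0.

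Closed facultative regions were frequent near genes of primitive endoderm. Of 32 listed genes, 27 had at least 1 closed facultative region within 50 kb of a start site, 97 regions in all, and these were 39.0% of the 249 GATA6 binding regions there, while 21.7% of all regions were closed facultative. Near 18 pluripotency genes the share was 9.52% (12 of 126 regions), and near 30 regulators of other lineages it was 22.4% (17 of 76 regions). The closed facultative regions near primitive endoderm genes were unevenly spread, with 10 near Gata4 and 10 near Foxa2 but 1 near Cubn and 1 near Sparc. Other closed groups were not counted near these genes. The lists hold textbook genes, and no set test was made.

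At day 4, GATA6 was 2-fold above day 0 at 86 of the 97 closed facultative regions near primitive endoderm genes, or 88.7%, and SOX17 at 83, or 85.6%. Of all 249 regions near these genes 84.3% and 78.7% had the gains. Near pluripotency genes GATA6 had gained at 7 of 12 closed facultative regions (58.3%) and SOX17 at 4 (33.3%), against 53.2% and 27.8% of all 126 regions there. Near the other lineage regulators the gains were found at 10 (58.8%) and 6 (35.3%) of 17, against 43.4% and 32.9% of all 76 regions.

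The region with the highest GATA6 near Gata4, which encodes another GATA factor of primitive endoderm, lay in an intron 13.9 kb from its start (chr14:63230600-63233072). GATA6 was 1.96 RPM at day 0, 17.8 at 8 h, 27.1 at 16 h, then 23.5, 28.7 and 38.2 RPM on days 1, 2 and 4, with 54.1 RPM in XEN cells. SOX17 followed, with 2.94 RPM at 8 h, 18.1 RPM at day 1 and 36.9 RPM at day 4. A region 8.49 kb from Pdgfra (chr5:75142815-75145699) had nearly the same course, from 2.12 RPM of GATA6 at day 0 to 18.5 at 8 h, 35.2 at day 4 and 53.4 RPM in XEN cells. It was not the Pdgfra region with high OCT4 described above, at which GATA6 fell by day 4.

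Genes of the basement membrane, which primitive endoderm secretes, had regions of several kinds. The region near Lrrc30 was also the one with the highest GATA6 within 50 kb of the start of Lama1, which encodes a laminin chain, and had 21.8 RPM at 8 h and 30.9 RPM at day 4. Near Lamb1, another laminin chain (chr12:31254958-31257713), GATA6 was 3.50 RPM at 8 h and 17.1 RPM at day 4. Near Sparc, a collagen-binding glycoprotein (chr11:55434068-55434592), GATA6 was 0.246 RPM at 8 h and 7.32 RPM at day 4, a late region.

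Among other primitive endoderm genes, an intronic region of Stra6, the receptor of the retinol carrier (chr9:58131325-58133525), had 1.41 RPM of GATA6 at 8 h and 18.7 RPM at day 4. A region 40.6 kb from Foxa2, a forkhead factor (chr2:148004445-148005951), had 5.72 RPM at 16 h and 13.9 RPM at day 4. Near Thbd, which encodes thrombomodulin (chr2:148391979-148392473), GATA6 was 3.59 RPM at day 4 and 11.1 RPM in XEN cells. The one closed facultative region within 50 kb of Sox17 (chr1:4447845-4448331) was transient, with 1.67 RPM at 8 h and 0.476 RPM at day 4.

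Near pluripotency genes, the region with the highest GATA6 was named for 7 genes, and GATA6 was higher at day 4 than at 8 h at 4 of them and lower at 3. An intronic region of Esrrb (chr12:86364380-86365319) was transient, with GATA6 at 0.817 RPM at day 0, 8.06 at 8 h, 3.42 at 16 h, then 1.96, 0.711 and 0.295 RPM on days 1, 2 and 4, with 0.370 RPM in XEN cells. An intronic region of Tet1, a dioxygenase that oxidizes methylcytosine (chr10:62906687-62907599), went from 15.1 RPM at 8 h to 3.55 RPM at day 4. A region 10.5 kb from Klf4 (chr4:55541103-55543306) was one of the 4, from 1.61 RPM at 8 h to 12.5 RPM at day 4.

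Among the regions named for 13 regulators of other lineages, GATA6 was higher at day 4 than at 8 h at 7 and lower at 6. GATA6 in an intron of Pax7 (chr4:139815429-139816259), a gene of muscle stem cells, was 15.7 RPM at 8 h and 7.21 RPM at day 4. Regions near Gata2, a blood regulator (chr6:88218772-88219584), and Eomes, a T-box gene (chr9:118503769-118504470), had 7.05 and 7.98 RPM at 8 h and 0.602 and 1.23 RPM at day 4. These 3 regions were among the 6.

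Oct4 siRNA was used to ask whether binding of GATA6 and SOX17 depends on OCT4. In the closed facultative regions the median GATA6 level was 1.45 RPM with control siRNA and 1.65 RPM with Oct4 siRNA, against 1.64 and 1.68 RPM over all regions. GATA6 was at least 2-fold higher with Oct4 siRNA at 1072 closed facultative regions, or 11.7%, against 7.77% of all regions, and at least 2-fold lower at 385, or 4.19%, against 5.28%. SOX17 was higher with Oct4 siRNA in most regions, with a median log2 change of 0.52 over all regions and 0.59 over the closed facultative ones. It was 2-fold higher at 25.7% of them (20.8% of all) and 2-fold lower at 0.370% (0.441% of all). Relative to the change over all regions, SOX17 was 2-fold higher at 7.71% of the closed facultative regions and 2-fold lower at 4.10%. By the same measure, GATA6 was 2-fold higher at 11.7% of the closed facultative, 12.0% of closed naive and 9.81% of closed constitutive regions. SOX17 was 2-fold higher at 9.59% of closed naive and 6.09% of closed constitutive regions.

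The direction of the GATA6 change went with the class. Late closed facultative regions had a median log2 change of 0.49, with 21.2% at least 2-fold higher and 0.728% lower, against 0.48, 20.8% and 0.772% in the late regions of all chromatin. Transient closed facultative regions had a median of -0.40, with 0.618% higher and 11.6% lower, against -0.31, 0.626% and 10.1% in all transient regions. Early ones had a median of -0.10, with 1.80% higher and 4.61% lower, against -0.06, 2.0% and 4.0% in all early regions. The dependence on class was thus found over all regions with nearly the same values. By pluripotency factor class the medians were 0.23 in regions never bound, -0.19 in regions bound ectopically and -0.32 in those bound at day 0. Of the 1072 regions with higher GATA6, 95% were late and 97.2% had no pluripotency factor peak, against 89.7% and 92.0% of the 3294 regions with higher GATA6 in all chromatin.

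**Figure D5:**
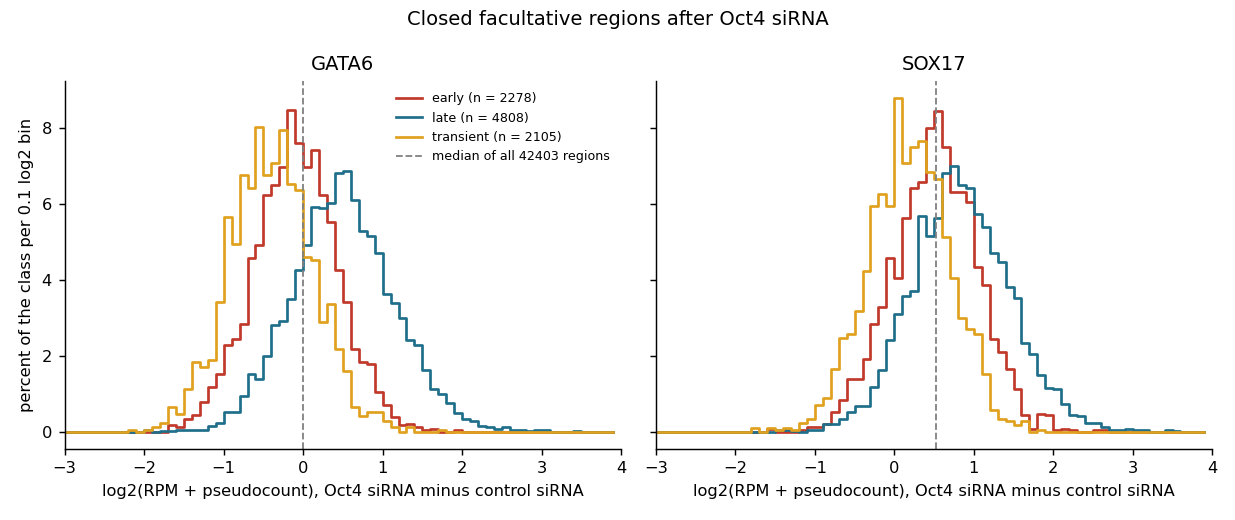
Share of the early (2278), late (4808) and transient (2105) closed facultative regions (y axis, percent of the class in each bin of 0.1) by the log2 difference between Oct4 and control siRNA (x axis) for GATA6 (left) and SOX17 (right). The dashed line is the median of all 42403 regions, 0.52 for SOX17; the late regions lie to the right of the transient regions in both panels.

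The regions with higher GATA6 after Oct4 siRNA at 48 h overlapped those that gained GATA6 between days 2 and 4 in the separate libraries of the untransfected time course. GATA6 was 2-fold higher at day 4 than at day 2 at 26.1% of the closed facultative regions, against 17.5% of all regions. The share was 73.6% among the 1072 regions with higher GATA6 after Oct4 siRNA, 20.7% among the 7734 that changed by less than 2-fold and 0.779% among the 385 with lower GATA6. Conversely, 32.9% of the 2396 closed facultative regions that gained GATA6 between days 2 and 4 were higher with Oct4 siRNA. Over all regions these shares were 72.2% and 32.0%. SOX17 was also 2-fold higher with Oct4 siRNA at 76.9% of the 1072 regions, and at 78.6% of the 3294 in all chromatin. Nearly all of the 1072 regions were late, against 48.55% of the 7734 that changed by less than 2-fold. The late class was itself sorted by the GATA6 time course, which includes days 2 and 4. The shares with a gain between these days were not compared within the late class. Whether the overlap went beyond class membership was therefore not tested.

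The largest gain of GATA6 among the 4559 closed facultative regions with at least 2 RPM in either siRNA was found in an intron of Gclc, which encodes the catalytic subunit of the enzyme that starts glutathione synthesis (chr9:77763374-77763730). GATA6 was 0.129 RPM with control and 3.34 RPM with Oct4 siRNA, and SOX17 was 0.306 and 3.91 RPM. In the time course GATA6 was 0.653 RPM at day 0, 0.188 at 8 h, 0.289 at 16 h, then 0.419, 0.482 and 2.92 RPM on days 1, 2 and 4, with 3.95 RPM in XEN cells. The day 0 level came from 1 library with a lowest value of 0.163 RPM. It rests on few reads, so levels up to day 2 cannot be ranked against it. The next were 73.2 kb from Zbtb40 (chr4:137121695-137122034), with GATA6 at 0.232 and 3.32 RPM and no GATA6 motif, and 21.6 kb from Aqp7, a channel for glycerol (chr4:41069596-41070024), with 0.582 and 6.19 RPM. OCT4 at day 2 was between 0.138 and 0.237 RPM at these 3 regions, where input was between 0.184 and 0.301 RPM.

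The largest loss was found in an intron of C1qtnf7, a secreted protein related to complement C1q (chr5:43577264-43577600), with GATA6 at 2.26 RPM with control and 0.349 RPM with Oct4 siRNA. In the time course GATA6 there was 0.163 RPM at day 0, 1.11 at 8 h, 1.75 at 16 h, then 1.37, 0.813 and 0.338 RPM on days 1, 2 and 4, with 0.331 RPM in XEN cells. The others were 96.8 kb from Polr3a, the largest subunit of RNA polymerase III (chr14:24390148-24390433), with 2.36 and 0.466 RPM, and 25.8 kb from Socs1, a suppressor of cytokine signalling (chr16:10759584-10759894), with 3.03 and 0.652 RPM. The last was bound ectopically by pluripotency factors, with OCT4 at 2.52 RPM at day 2.

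Among the regions with the highest OCT4 at day 2, GATA6 was lower with Oct4 siRNA in Cpn1, 14.6 RPM against 31.9 RPM, and at the Pdgfra region of high OCT4, 18.3 against 35.2 RPM. It was not lower in Mob3b, with 61.0 against 55.9 RPM. At the Clic6 region GATA6 was 53.3 against 50.0 RPM.

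GATA6 in XEN cells was highest at the Clic6 region, followed by a region in an intron of Sema6a, which encodes a transmembrane semaphorin, with 67.2 RPM, and one 20.1 kb from Chn2, a regulator of Rac (chr6:54018885-54022113), with 66.9 RPM. At day 4 these regions stood at 33.3 and 33.8 RPM. All 3 were early regions with a SOX17 peak.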

How the data were processed

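The data were 1 table of 42403 GATA6 binding regions of mm10, with 45 columns of RPM, 1 per condition. The series held 96 libraries, of which the input libraries of control and Oct4 siRNA were in none of the 45 columns. Changes with Oct4 siRNA were therefore not set against input. Per the labels and the study's methods, the authors trimmed reads with cutadapt, aligned them with Bowtie2, removed duplicates with SAMtools and molecular identifiers, filtered by mapping quality, corrected counts to library size and deposited RPM per region as 1 column per condition. The authors' motif scores, deposited with each region, came from a motif scan, and the deposited classes from clustering and peak calls. Another column of the table holds the authors' own call of regions that changed with Oct4 siRNA and was not used, nor were 14 columns of accessibility and histone signal, which are not mapped to samples used here.

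Differences are of log2(RPM + pseudocount), where the pseudocount is the 5th percentile of all values of an assay (0.158 to 0.195 RPM), and a region is called from 2-fold on. No value was 0. In 40 columns the low values rose in steps of 1 or 2 fixed sizes, and the lowest value equalled the step or the sum of both. Such a floor would come from 1 read added per library, which is not given in the sources used here. At GATA6 day 0 it held 31.8% of the closed facultative regions and 22.9% of all. In 35 columns the number of steps matched that of the libraries, which gives 5.42 to 69.4 M reads per library (M, the unit of RPM) with a median of 15.3 M, if a column is the mean of its libraries; the depth of the others is unknown. The 4 columns of 1 step were GATA6 at day 0, OCT4 in XEN cells, SOX17 at 16 h and ESRRB at 8 h. SOX17 at 16 h and ESRRB at 8 h are labelled with 2 libraries each, so how many libraries these columns hold is unknown. In the 4 columns of 1 step, 100% of the low values were whole multiples within 0.1 step, but with 1 column per condition no count test could be made. The depth sets a counting error that is large for a region of few reads, and the replicate error is unknown.

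Regions were placed on the reference GRCm38 and annotated with GENCODE vM21 protein-coding genes. The 3 gene lists, the regions to name and the alternatives were written down with earlier results of these data known. Named were the 3 highest regions of each GATA6 class (GATA6), of SOX17 at day 4, OCT4 and SOX2 at day 2, ESRRB at day 0 and GATA6 in XEN cells, the 3 largest gains and losses with Oct4 siRNA, and the region with the highest GATA6 near a listed gene; of the latter those described were picked after their values were seen. Python 3.11.15 with numpy 2.4.6, pandas 2.3.3 and matplotlib 3.10.9 was used, and the 2-fold call was tested on simulated data.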

Additional observations from a re-analysis of the deposited data

How the results depend on the processing

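No paired analysis was possible because the libraries of a condition share 1 column, so that no replicate could be paired or left out either, and replicate error is unknown. The shares of closed facultative regions past 2-fold depended most on the pseudocount, since most levels lay below 1 RPM. With a pseudocount 10 times larger, GATA6 was higher at 8 h at 12.1% of them, higher at day 4 than at 8 h at 15.5% and lower at 5.19%, and higher in XEN cells than at day 4 at 6.34%. With it, SOX17 was higher at day 4 at 20.7%, OCT4 at day 2 at 3.91% and at day 4 at 6.38%, SOX2 at day 2 at 0.664% and at day 4 at 7.22%, ESRRB lower at day 2 at 0.0435% and input higher at 0.0%, and with Oct4 siRNA GATA6 was higher at 1.45% and SOX17 at 3.81%. With a pseudocount 10 times smaller, the shares were 15.7% for SOX2 at day 2, 7.09% for the loss of ESRRB and 5.12% for input. Among regions reaching 1 RPM in the assay, they were 35.3% for OCT4 at day 2, 48.1% for OCT4 at day 4, 15.3% for SOX2 at day 2, 56.1% for SOX2 at day 4, 5.69% for the loss of ESRRB and 7.75% for input.

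Relative to the median change of all regions, GATA6 was higher at 8 h at 11.7% with a median log2 change of -0.742, the reverse of its direction as deposited, SOX17 at day 4 at 32.4%, ESRRB lower at 0.413% and SOX17 with Oct4 siRNA at 7.71%. Per kb of width, the level of the closed facultative regions over that of all regions turned from below 1 to 1.07 for GATA6 and 1.05 for SOX17 at day 4. With the lowest value of each column subtracted, an alternative chosen after seeing the data, as were those of OCT4 and SOX2 at day 4, input was higher at 4.52%. No other main result changed direction or moved by over 1.5 times.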
